A study of Mus musculus with 18 samples.

Results

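The liver expression of 10 genes of de novo lipogenesis, the synthesis of fatty acids from carbohydrate carbon, was examined in ICR mice. The genes were taken by name from the 19057 gene symbols of the expression table: Fasn, Acaca, Acacb, Acly, Scd1, Elovl6, Me1, Srebf1, Mlxipl and Pnpla3. Each symbol had 1 entry in the table. Male mice, with livers taken at 10 weeks of age, formed 6 groups of 3 libraries. Con mice were the controls, with no streptozotocin, AOS or transplant in their labels. AOS mice received alginate oligosaccharide at 10 mg/kg, and STZ mice received streptozotocin, which destroys the insulin-producing beta cells of the pancreas and so models type 1 diabetes. STZ+AOS mice received both agents. A10-FMT mice were STZ mice given gut microbiota from donors that had been dosed with AOS at 10 mg/kg, and Con-FMT mice were STZ mice given microbiota from donors dosed with water. The donor material was pooled gut content, so the FMT libraries of a group share 1 kind of inoculum. The AOS and STZ+AOS groups occur in the sample labels only, and the route and timing of their dosing are not given in the sources used here. The labels number the libraries of a group 1 to 3 without stating that each came from a separate mouse, so p-values measure the spread between these libraries.

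Lipogenesis turns surplus glucose into fat in the hepatocyte. Citrate exported from mitochondria is cut to acetyl-CoA by ATP citrate lyase (Acly), acetyl-CoA is carboxylated to malonyl-CoA by the acetyl-CoA carboxylases (Acaca and Acacb), and fatty acid synthase (Fasn) assembles palmitate with NADPH, part of which comes from malic enzyme (Me1). Elovl6 lengthens palmitate to stearate and Scd1 desaturates the products to monounsaturated fatty acids. Insulin raises the program through SREBP-1c, encoded by Srebf1, and glucose raises it through ChREBP, encoded by Mlxipl. Pnpla3 encodes a lipid droplet protein whose liver mRNA is known to follow feeding and SREBP-1c.

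The values are RPKM, reads per kilobase of transcript scaled to the mapped reads of the library, which can be compared between genes. The sum of RPKM per library ran from 621121 to 806937, and 9955 to 10409 genes reached 1 RPKM. The sum was 749557 to 806937 in Con and 717904 to 746327 in AOS. It was lower in STZ, at 631126 to 684659, and in STZ+AOS, at 621121 to 642433. In A10-FMT it was 675600 to 712798 and in Con-FMT 673423 to 709679. The low values moved in steps of about 1 read, which gave an estimate of 12240000 to 14240000 counted reads per library, with a clear peak of the estimate in 13 of 18. The albumin gene Alb, which marks hepatocytes, was between 24367 and 37719 RPKM in all 18 libraries. Of 7 hepatocyte markers, 3 were lower in every STZ library than in every Con library, Apoa1, Ttr and Serpina1c, 3 were higher, Cps1, Hnf4a and Cyp2e1, and Alb overlapped. Their sum, mostly Alb, was 48299.7 to 68638 RPKM in Con and 42270.3 to 50207 RPKM in STZ. Of 6 adipocyte markers, Plin1 and Lep were under 0.1 RPKM in every library and Adipoq did not exceed 0.12 RPKM. The summed adipocyte markers, nearly all of it Fabp4, were 7.47 to 8.88 RPKM in Con and 11.5 to 29.8 RPKM in STZ. Stellate cell markers summed to 74.6 to 91.3 RPKM in Con and 113 to 144 RPKM in STZ, and to 91.3 to 106 RPKM in AOS and 143 to 165 RPKM in STZ+AOS, without overlap. Pancreatic acinar markers reached 65.5 RPKM in 1 STZ+AOS library and did not exceed 1.89 RPKM in the libraries of the other groups. The part of these cell types in the results was not tested. In tissue RNA, fewer hepatocytes and less RNA per hepatocyte cannot be told apart.

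Con 3 and AOS 3 stood apart from the other 16 libraries. Among 6624 genes with a mean of at least 5 RPKM, Con 1 and Con 2 differed by more than 0.5 on the log2 scale in 741 genes, and Con 3 lay between them in 96.2% of these. AOS 3 lay between AOS 1 and AOS 2 in 94.3% of 440 such genes. In every other library this share was 15.0% to 82.3%. The closest weighted average was 50.7% Con 1 and 49.3% Con 2 for Con 3, and 41.1% AOS 1 and 58.9% AOS 2 for AOS 3. The median gene differed from that average by 0.065 in Con 3 and by 0.069 in AOS 3 on the log2 scale, where Con 1 and Con 2 differed by 0.201 and AOS 1 and AOS 2 by 0.136. Both libraries lay between their group mates for all 10 lipogenic genes. Counts of lipogenic genes called in comparisons with Con or AOS are therefore given with and without Con 3 and AOS 3. Unless stated otherwise, p-values of single genes use all 18 libraries.

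In Con the order of mean levels was Scd1, Mlxipl, Me1, Acly, Fasn, Srebf1, Acacb, Acaca, Elovl6 and Pnpla3. From Me1 through Acly and Fasn to Srebf1 each gene overlapped the next, as did Acacb, Acaca and Elovl6, while Scd1, Mlxipl and Pnpla3 did not overlap their neighbours. In STZ the order opened with Mlxipl, ahead of Scd1, Me1, Acly, Srebf1 and Fasn, and the Scd1 range overlapped those of the other 5.

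All 10 genes were among the 10822 with at least 1 RPKM in 3 of 18 libraries. Pnpla3 passed only through Con and AOS libraries, the groups in which it was high, so its place among the tested genes was bound to its pattern. Group means of log2(RPKM + 1) were compared by limma over 10822 genes, with the call set where the adjusted p was below 0.05. Fold changes on this scale understate the change of low genes such as Pnpla3.

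In STZ livers 7 of 10 lipogenic genes were lower than in Con, against 5.25% of all tested genes: Fasn, Acacb, Acly, Scd1, Me1, Mlxipl and Pnpla3. The median log2 change over the 10 genes was -0.58, while the median over all tested genes was 0.21. The Scd1 level fell from 744 ± 69.6 to 49.2 ± 39.3 RPKM (mean ± SD, n = 3), the largest change among the 10 genes. Acaca, Elovl6 and Srebf1 were not called. With AOS in both arms, STZ+AOS against AOS, 8 of 10 genes were lower against 6.11% of all genes, namely the same 7 and Acaca, with a median log2 change of -1.0. Every STZ library was below every Con library for 5 genes, where this held for 6.98% of all tested genes, and every STZ+AOS library was below every AOS library for 8, where it held for 8.61%. Pnpla3, whose place among the tested genes was bound to its pattern, is in all of these counts. A filter on the mean over libraries of at least 1 RPKM dropped Pnpla3. Of the 9 genes left, 6 were then lower in STZ against Con and 7 in STZ+AOS against AOS. Over all genes 537 and 618 of 10300 were lower.

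The count in STZ against Con changed with the libraries that entered. Without Con 3 and AOS 3, only Scd1 was called in STZ against Con, while the log2 changes themselves moved little: Fasn went from -1.0 to -0.97, with adjusted p = 0.0663 by limma, and Mlxipl from -0.61 to -0.60, with adjusted p = 0.0558. Without Con 2, in which all 10 genes were highest of the group, 1 gene was called as well, and 3 were called without STZ 2 and 4 without Con 3. Lower calls over all 10822 genes fell too, from 568 to 307 without Con 3 and AOS 3 and to 409 without Con 2. They were 334 without STZ 2 and 358 without Con 3. In STZ+AOS against AOS 7 genes were called without Con 3 and AOS 3, with Acaca lost. Lower calls over all genes went from 661 to 417 in that comparison. The upward shift of the median gene in STZ disappeared when each library was scaled by its median ratio, and 7 genes were then lower in STZ against Con, where 12.2% of all genes were, and 9 in STZ+AOS against AOS, where 12.3% were. The direction of Acaca in STZ against Con turned under that scaling, from 0.15 to -0.09, neither of them called.

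**Figure D1:**
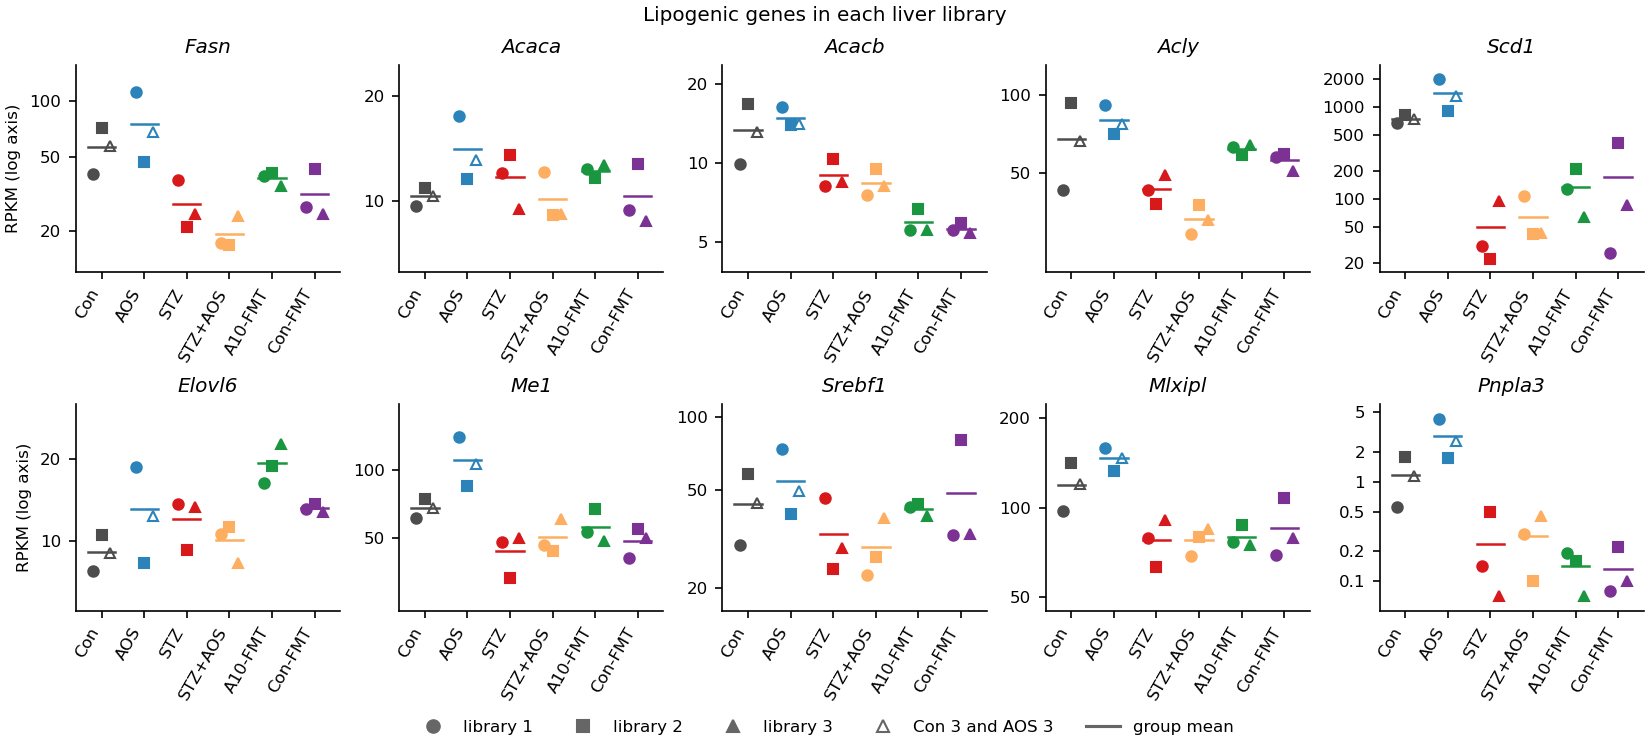
RPKM of the 10 lipogenic genes on log axes, 1 panel per gene, with the 6 groups along the horizontal axis; each marker is 1 library, bars are group means, and Con 3 and AOS 3 are hollow. Scd1 lay between 676 and 2033 RPKM in the 6 Con and AOS libraries and between 22.5 and 406 RPKM in the 12 libraries of STZ-treated groups, while Acaca stayed between 8.75 and 17.5 RPKM throughout.

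**Figure D2:**
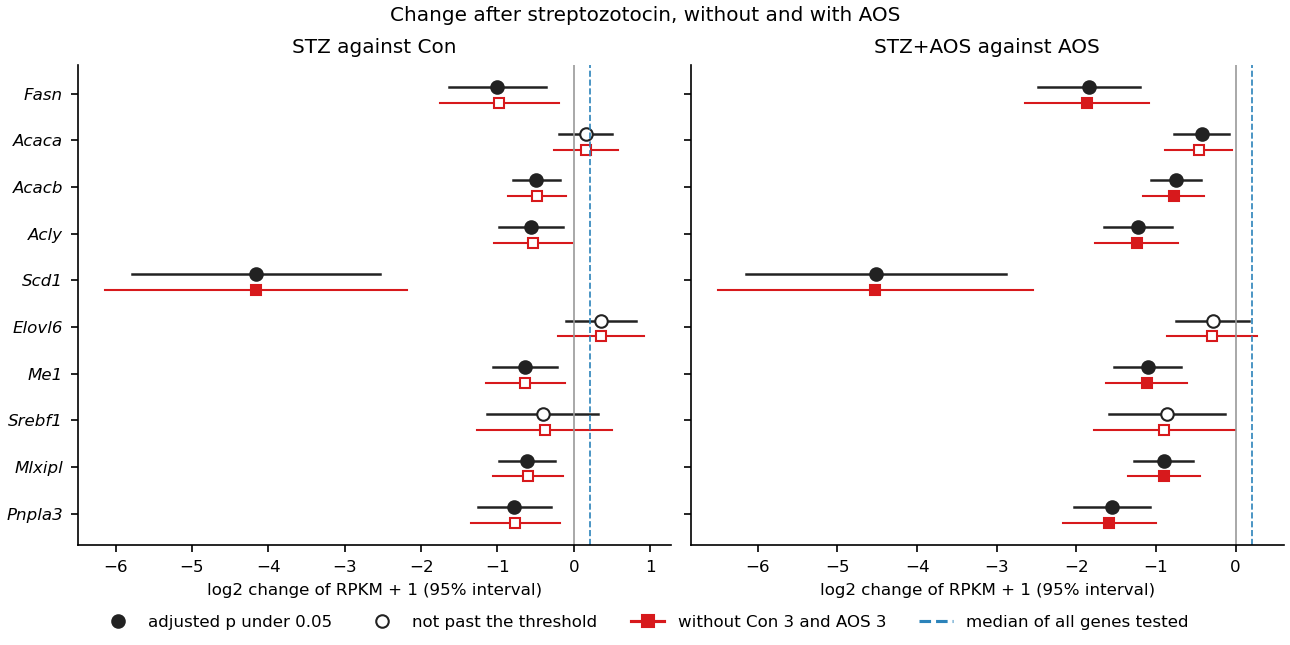
Log2 change of each gene after streptozotocin with 95% intervals, without AOS (left) and with AOS in both arms (right); black circles use all libraries, red squares leave out Con 3 and AOS 3, filled symbols passed an adjusted p under 0.05, and the dashed line is the median of all tested genes. On the left 7 circles and 1 square are filled, and on the right 8 circles and 7 squares.

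Srebf1 (chr11:60199089-60222581, minus strand, GRCm38) encodes SREBP-1, the insulin-responsive transcription factor of the pathway. Its level was 29.9, 58.2 and 44.4 RPKM in Con libraries 1, 2 and 3 and 73.5, 40.1 and 49.8 RPKM in AOS. It was 46.4, 23.9 and 29.1 RPKM in STZ and 22.7, 26.9 and 38.7 RPKM in STZ+AOS. The STZ range overlapped that of Con, whereas every STZ+AOS library was below every AOS library. The log2 change was -0.41 (95% interval -1.14 to 0.32, limma adjusted p = 0.363) in STZ against Con and -0.86 (95% interval -1.59 to -0.13, limma adjusted p = 0.0598) in STZ+AOS against AOS, and the latter passed the threshold under median-ratio scaling (-1.10, adjusted p = 0.031). In A10-FMT the libraries were close together at 43.0, 44.2 and 39.3 RPKM, and in Con-FMT they were 33.0, 80.3 and 33.4 RPKM, with Con-FMT 2 above all other libraries of the study. The Srebf1 gene overlaps Rai1 on the opposite strand, and the sources used here do not state a strand setting for counting.

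Mlxipl (chr5:135089890-135138382, plus strand) encodes ChREBP, the glucose-responsive factor, and had the highest level of the 10 genes after Scd1 in Con. It was at 97.0, 141 and 120.0 RPKM in Con and 159, 132 and 147 RPKM in AOS. In STZ it was at 79.1, 63.0 and 91.0 RPKM and in STZ+AOS at 69.0, 79.8 and 84.9 RPKM, with no overlap with the group lacking streptozotocin in either case. Mlxipl changed on the log2 scale by -0.61 (95% interval -0.98 to -0.24, limma adjusted p = 0.0137) in STZ against Con and -0.90 (95% interval -1.27 to -0.53, limma adjusted p = 0.00149) in STZ+AOS against AOS. A10-FMT libraries held 76.7, 87.6 and 75.1 RPKM and Con-FMT libraries 69.5, 108 and 79.1 RPKM, the latter reaching into the Con range through Con-FMT 2. The ratio of Srebf1 to Mlxipl was 0.308, 0.414 and 0.37 in the 3 Con libraries, 0.587, 0.379 and 0.32 in STZ and 0.561, 0.504 and 0.523 in A10-FMT. It was 0.475, 0.746 and 0.422 in Con-FMT. The libraries of both FMT groups were thus above all Con libraries, and the A10-FMT libraries were within the STZ range. In AOS the ratio was 0.462, 0.303 and 0.339 and in STZ+AOS 0.328, 0.337 and 0.456. AOS 1 was also above all Con libraries and above Con-FMT 3, so the ratio did not separate Con-FMT from the groups without streptozotocin.

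Both factors bind near the start of lipogenic genes, so the 250 bases upstream of each annotated start were read from RefSeq (GRCm38.p6), which held 13 such windows for 9 of the 10 genes and none for Scd1. They were searched on both strands for TCACNCCAC, the classical SREBP element, for CACGTG, the palindromic E-box, for CCAAT and for GGGCGG, the GC box. The SREBP element was found in 1 of the 13 windows, the E-box in 1, CCAAT in 7 and the GC box in 6. Over 32851 windows of the same length the shares were 1.05%, 6.02%, 33.8% and 32.7%. The windows of Acaca and Acacb lie at internal starts of the GENCODE gene rather than at its first base. Printed here are Fasn, Acly and Pnpla3, which were called lower after streptozotocin in both comparisons, the second Mlxipl start, the only window with the SREBP element, and Elovl6, which was not called lower and held none of the 4 motifs. Motifs did not follow the calls among the windows not printed. The Acaca window, of a gene called lower in STZ+AOS against AOS, also held none of the 4 motifs. The 3 windows of Srebf1, called in neither comparison, each held CCAAT or a GC box. Capitals mark matches to any of the 4 motifs on either strand. The windows are chr11:120824548-120824797, minus strand, for Fasn, chr11:100528001-100528250, minus strand, for Acly, chr15:84167566-84167815, plus strand, for Pnpla3, chr5:135106641-135106890, plus strand, for Mlxipl, and chr3:129532136-129532385, plus strand, for Elovl6.
Fasn: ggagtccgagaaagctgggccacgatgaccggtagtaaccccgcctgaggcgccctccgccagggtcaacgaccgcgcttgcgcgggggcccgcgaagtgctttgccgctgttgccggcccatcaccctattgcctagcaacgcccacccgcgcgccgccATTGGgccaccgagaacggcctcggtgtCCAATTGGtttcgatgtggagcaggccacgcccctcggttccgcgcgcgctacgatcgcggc
Acly: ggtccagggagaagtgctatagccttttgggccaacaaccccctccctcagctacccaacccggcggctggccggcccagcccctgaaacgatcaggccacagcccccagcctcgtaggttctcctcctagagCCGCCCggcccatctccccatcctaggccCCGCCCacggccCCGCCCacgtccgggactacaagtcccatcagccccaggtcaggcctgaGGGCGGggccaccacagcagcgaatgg
Pnpla3: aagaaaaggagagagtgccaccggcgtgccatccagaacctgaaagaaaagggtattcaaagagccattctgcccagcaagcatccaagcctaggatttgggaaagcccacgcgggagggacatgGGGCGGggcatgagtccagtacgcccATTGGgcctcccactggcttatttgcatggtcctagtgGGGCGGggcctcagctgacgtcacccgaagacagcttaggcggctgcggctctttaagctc
Mlxipl: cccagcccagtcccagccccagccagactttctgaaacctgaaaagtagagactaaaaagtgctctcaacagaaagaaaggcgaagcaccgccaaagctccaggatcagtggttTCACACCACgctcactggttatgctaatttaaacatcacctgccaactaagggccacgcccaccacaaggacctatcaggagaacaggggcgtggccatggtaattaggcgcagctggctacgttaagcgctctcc
Elovl6: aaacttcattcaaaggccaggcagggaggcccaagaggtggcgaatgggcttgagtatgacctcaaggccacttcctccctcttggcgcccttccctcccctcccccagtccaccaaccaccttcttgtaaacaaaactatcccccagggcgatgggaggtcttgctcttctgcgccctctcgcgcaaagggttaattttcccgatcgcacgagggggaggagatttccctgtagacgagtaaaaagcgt
In the Fasn window a forward and a reverse CCAAT share 2 bases, and a further reverse CCAAT lies upstream of them. The Acly window holds 4 GC boxes and no CCAAT. In Pnpla3 a reverse CCAAT lies between 2 GC boxes. A match is a description of the letters, and no binding was measured.

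Acly (chr11:100476353-100528000, minus strand) supplies acetyl-CoA in the cytosol. Its level was 43.1, 92.5 and 66.6 RPKM in Con, 91.2, 70.5 and 77.4 RPKM in AOS, 43.3, 38.2 and 49.3 RPKM in STZ and 29.3, 37.8 and 33.2 RPKM in STZ+AOS. Con 1 lay within the STZ range, and all STZ+AOS libraries lay below the lowest STZ and AOS libraries. The log2 change was -0.56 (95% interval -0.98 to -0.14, limma adjusted p = 0.0391) in STZ against Con and -1.23 (95% interval -1.65 to -0.80, limma adjusted p = 0.000555) in STZ+AOS against AOS. The Acly call in STZ against Con was lost with no filter on low values, with the compared groups only and with 4 groups only. Leaving out STZ 1, STZ 2, Con 2 or Con 3 also removed it. In A10-FMT Acly was at 62.9, 58.9 and 64.2 RPKM and in Con-FMT at 57.8, 59.0 and 51.2 RPKM. Every FMT library was above every STZ library, but the changes of 0.51 (95% interval 0.08 to 0.93, limma adjusted p = 0.197) and 0.36 (95% interval -0.06 to 0.78, limma adjusted p = 0.343) were not called.

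Me1 (chr9:86581371-86695953, minus strand) encodes the cytosolic malic enzyme, a source of NADPH. It was at 60.8, 74.2 and 67.3 RPKM in Con and 47.8, 33.2 and 49.7 RPKM in STZ, groups that did not overlap. AOS libraries held 139, 84.9 and 105 RPKM, above every Con library, and STZ+AOS libraries 46.3, 43.6 and 60.4 RPKM. On the log2 scale Me1 changed by -0.63 (95% interval -1.05 to -0.22, limma adjusted p = 0.0213) in STZ against Con and -1.10 (95% interval -1.52 to -0.68, limma adjusted p = 0.000968) in STZ+AOS against AOS. FMT libraries were at 53.1, 66.6 and 48.1 RPKM in A10-FMT and 40.8, 54.5 and 49.8 RPKM in Con-FMT, overlapping STZ.

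Acacb (chr5:114146535-114250761, plus strand) encodes the isoform at mitochondria, whose malonyl-CoA restrains fatty acid oxidation, and Acaca (chr11:84129672-84401651, plus strand) the cytosolic isoform that feeds synthesis. Acacb was at 9.94, 16.8 and 13.1 RPKM in Con, 16.3, 13.9 and 14.1 RPKM in AOS, 8.20, 10.3 and 8.46 RPKM in STZ and 7.53, 9.45 and 8.20 RPKM in STZ+AOS. It was lower still in both FMT groups, at 5.57, 6.70 and 5.58 RPKM in A10-FMT and 5.56, 5.92 and 5.40 RPKM in Con-FMT, and all 6 FMT libraries were below all 3 STZ libraries. Acaca was at 9.66, 10.9 and 10.3 RPKM in Con and 17.5, 11.6 and 13.1 RPKM in AOS. It was at 12.1, 13.5 and 9.50 RPKM in STZ and 12.1, 9.12 and 9.17 RPKM in STZ+AOS, and at 12.4, 11.6 and 12.6 RPKM in A10-FMT and 9.42, 12.8 and 8.75 RPKM in Con-FMT, with the STZ range containing that of Con.

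The log2 change of Acacb was -0.49 (95% interval -0.80 to -0.18, limma adjusted p = 0.0169) in STZ against Con and -0.75 (95% interval -1.06 to -0.44, limma adjusted p = 0.00158) in STZ+AOS against AOS. For Acaca it was 0.15 (95% interval -0.19 to 0.50, limma adjusted p = 0.473) and -0.43 (95% interval -0.77 to -0.08, limma adjusted p = 0.0485). The Acaca call in STZ+AOS against AOS lay near the threshold, and the ranges of these groups overlapped. It was lost with no filter on low values, in the fit without the trend and with the compared groups only. Leaving out AOS 1, AOS 3, STZ+AOS 2 or STZ+AOS 3 also removed it. Against Con, Acacb fell by 1.01 on the log2 scale in A10-FMT (limma adjusted p = 0.000611) and by 1.08 in Con-FMT (adjusted p = 0.000475). These held without Con 3 and AOS 3, at adjusted p = 0.00882 and 0.00727. Against STZ the changes of -0.52 (95% interval -0.83 to -0.21, limma adjusted p = 0.104) and -0.59 (95% interval -0.90 to -0.28, limma adjusted p = 0.0811) were not called. Without STZ 3 both were, at adjusted p = 0.0479 and 0.0263. Calls over all 10822 genes also rose in that setting, from 53 to 999 and from 18 to 1322.

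As a description, the ratio of Acacb to Acaca was 1.03, 1.54 and 1.27 in Con and 0.93, 1.21 and 1.08 in AOS. It was 0.68, 0.766 and 0.891 in STZ and 0.624, 1.04 and 0.894 in STZ+AOS, and 0.451, 0.577 and 0.442 in A10-FMT and 0.59, 0.463 and 0.617 in Con-FMT. The ratio was above 1 in all Con libraries and below 0.62 in all FMT libraries, with STZ between.

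Fasn (chr11:120805846-120824547, minus strand) encodes the multienzyme that builds palmitate. It was at 40.5, 72.1 and 57.1 RPKM in Con and 112, 46.9 and 68.6 RPKM in AOS. STZ libraries held 37.9, 21.1 and 24.6 RPKM and STZ+AOS libraries 17.2, 16.9 and 24.0 RPKM. All were below the lowest library of the group lacking streptozotocin, although STZ 1 came close to Con 1. Fasn changed on the log2 scale by -1.0 (95% interval -1.64 to -0.36, limma adjusted p = 0.0182) in STZ against Con and -1.84 (95% interval -2.48 to -1.21, limma adjusted p = 0.000573) in STZ+AOS against AOS, the latter still called without Con 3 and AOS 3 (adjusted p = 0.00579). A10-FMT libraries were at 39.7, 41.0 and 35.0 RPKM and Con-FMT libraries at 27.0, 43.3 and 24.6 RPKM, both overlapping STZ.

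Elovl6 (chr3:129532355-129638495, plus strand), the elongase that acts on the product of Fasn, was called in neither comparison with streptozotocin. It was at 7.84, 10.6 and 9.08 RPKM in Con, 13.6, 9.30 and 13.3 RPKM in STZ and 10.6, 11.3 and 8.37 RPKM in STZ+AOS. The AOS libraries spread over 18.6, 8.32 and 12.3 RPKM. A10-FMT libraries held 16.3, 18.9 and 22.5 RPKM, above every Con, STZ and Con-FMT library, and Con-FMT libraries 13.1, 13.7 and 12.8 RPKM. For Elovl6 the log2 change was 0.35 (95% interval -0.10 to 0.81, limma adjusted p = 0.208) in STZ against Con and -0.29 (95% interval -0.75 to 0.17, limma adjusted p = 0.303) in STZ+AOS against AOS. In A10-FMT Elovl6 was higher than in Con by 0.99 (95% interval 0.53 to 1.45, limma adjusted p = 0.00804), and it remained called without Con 3 and AOS 3 (adjusted p = 0.0465) and under median-ratio scaling (0.80, adjusted p = 0.028). The change of 0.64 (95% interval 0.18 to 1.10, limma adjusted p = 0.146) against STZ was not called. The ratio of Elovl6 to Fasn was 0.194, 0.147 and 0.159 in Con and 0.166, 0.177 and 0.18 in AOS. It was 0.36, 0.44 and 0.54 in STZ, 0.616, 0.67 and 0.349 in STZ+AOS, 0.412, 0.461 and 0.644 in A10-FMT and 0.487, 0.316 and 0.522 in Con-FMT, so all 12 libraries with streptozotocin were above the other 6.

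**Figure D3:**
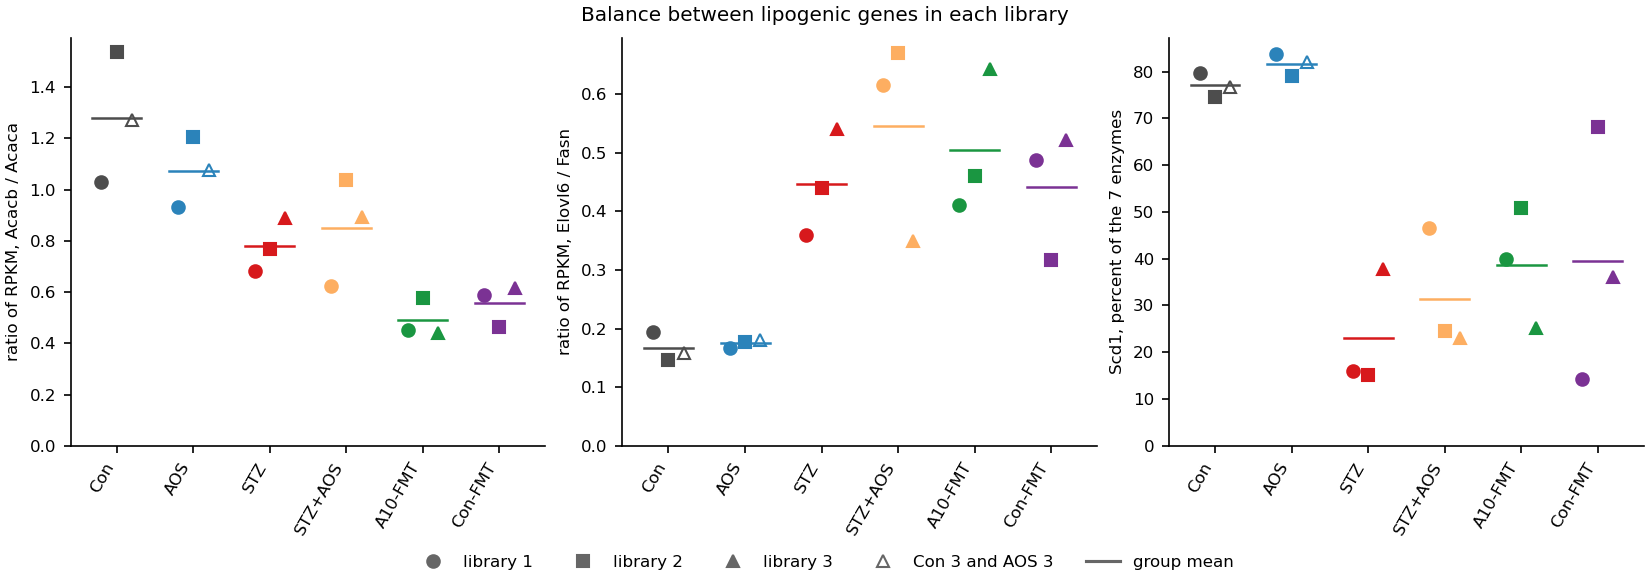
Per-library ratio of Acacb to Acaca, ratio of Elovl6 to Fasn, and Scd1 as a percent of the summed RPKM of the 7 enzymes, by group, with group means as bars and Con 3 and AOS 3 hollow. Scd1 made up 74.6% to 83.7% of the enzyme sum in Con and AOS and 14.3% to 68.2% in the groups with streptozotocin.

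Scd1 (chr19:44394455-44407879, minus strand), the delta-9 desaturase, had the widest range. Con libraries held 676, 815 and 740.0 RPKM and AOS libraries 2033, 895 and 1328 RPKM. STZ libraries held 30.9, 22.5 and 94.4 RPKM and STZ+AOS libraries 107, 41.9 and 42.7 RPKM. The mean in STZ was 15.1-fold below that in Con, and the mean in STZ+AOS 22.2-fold below that in AOS. The log2 change was -4.16 (95% interval -5.79 to -2.53, limma adjusted p = 0.0011) in STZ against Con and -4.51 (95% interval -6.14 to -2.89, limma adjusted p = 0.000722) in STZ+AOS against AOS, both still called without Con 3 and AOS 3 (adjusted p = 0.00894 and 0.00701). FMT libraries were at 127, 211 and 63.1 RPKM in A10-FMT and 25.6, 406 and 86.0 RPKM in Con-FMT, the latter a 15.9-fold spread within 1 group. Both FMT groups were lower than Con, in A10-FMT (log2 change -2.63, adjusted p = 0.0294) and in Con-FMT (log2 change -2.92, adjusted p = 0.0191). Neither was called without Con 3 and AOS 3, at adjusted p = 0.101 and 0.0763. Of the paralogs that could share reads with Scd1, Scd2 was at 0.67 to 2.83 RPKM over all libraries, and Scd3 and Scd4 did not exceed 0.1 RPKM.

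Pnpla3 (chr15:84167837-84187236, plus strand) was the lowest of the 10 genes. It was at 0.56, 1.77 and 1.15 RPKM in Con and 4.33, 1.74 and 2.55 RPKM in AOS. In STZ it was at 0.14, 0.50 and 0.07 RPKM and in STZ+AOS at 0.30, 0.10 and 0.45 RPKM, and in A10-FMT and Con-FMT at 0.19, 0.16 and 0.07 RPKM and 0.08, 0.22 and 0.10 RPKM. No library with streptozotocin reached the lowest Con library. At the estimated depth and the longest GENCODE transcript of 1313 bases, the STZ values correspond to 1.25 to 8.36 reads and the Con values to 10.4 to 32.2 reads. Pnpla3 changed on the log2 scale by -0.78 (95% interval -1.26 to -0.30, limma adjusted p = 0.0147) in STZ against Con and -1.55 (95% interval -2.03 to -1.07, limma adjusted p = 0.000307) in STZ+AOS against AOS, the latter called without Con 3 and AOS 3 as well (adjusted p = 0.00392). Annotated transcripts overlap Pnpla3 on both strands.

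Transplanted microbiota were compared with STZ to ask whether the recipients' lipogenic genes differed from those of STZ mice. None of the 10 genes was called in A10-FMT against STZ, where 0.49% of all genes were called, nor in Con-FMT against STZ, where 0.166% were. At an unadjusted limma p under 0.05, A10-FMT against STZ held 3 of them, Acacb lower and Acly and Elovl6 higher, and Con-FMT against STZ held Acacb. Over all genes this threshold was passed by 18.9% and 18.8%. The median log2 change of the 10 genes was 0.38 in A10-FMT and 0.15 in Con-FMT, beside -0.05 and -0.03 over all genes. These medians moved with single libraries: without STZ 2 they were 0.19 and -0.01, and without Con-FMT 2 the latter was 0.0039. Between A10-FMT and Con-FMT no gene of the table was called (0% of all genes, 245 genes at an unadjusted p under 0.05), and Elovl6 had the lowest unadjusted p among the 10 (0.035, log2 change 0.50). The interval of the Scd1 difference between the FMT groups ran from -1.34 to 1.92 on the log2 scale, so changes of more than 2-fold in either direction would fit in it.

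**Figure D4:**
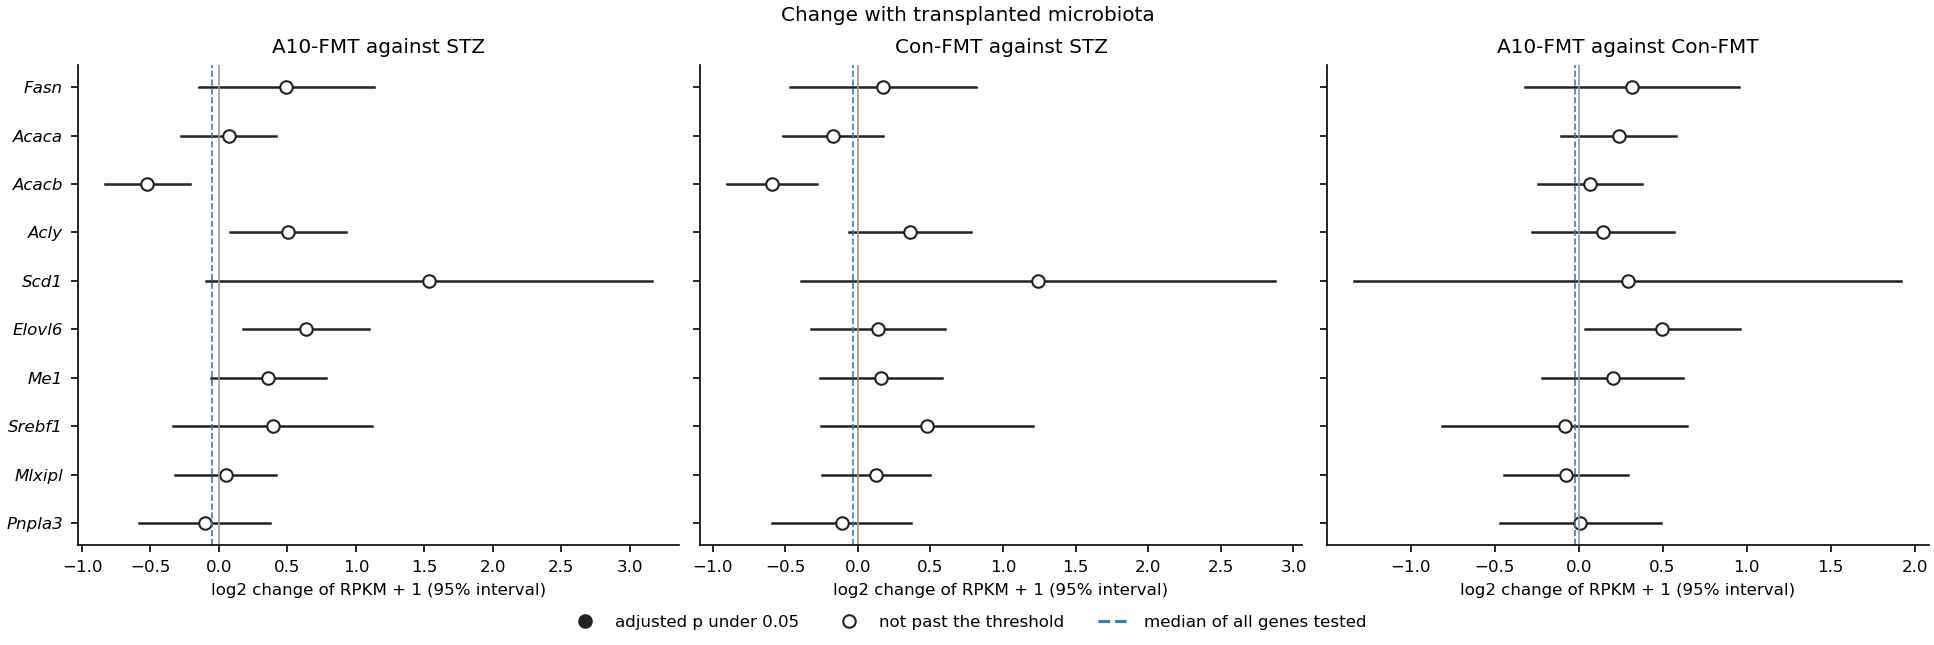
Log2 change of the 10 genes with 95% intervals for A10-FMT compared with STZ, for Con-FMT compared with STZ, and between the FMT groups; all symbols are open because no gene passed an adjusted p under 0.05, and the dashed line is the median of all tested genes. Acacb lay at -0.52 and -0.59 against STZ, and the intervals of Scd1 were the widest.

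Against Con, A10-FMT had 1 of the 10 genes higher, Elovl6, where 14.7% of all genes were higher, and 4 lower, Acacb, Scd1, Mlxipl and Pnpla3, where 2.39% were lower. Con-FMT had 3 lower, Acacb, Scd1 and Pnpla3, where 1.78% of all genes were lower. These comparisons share the Con libraries with STZ against Con. Under the filter on the mean that dropped Pnpla3, 3 of 9 genes were lower in A10-FMT and 2 of 9 in Con-FMT. Over all genes 237 and 173 of 10300 were lower. Under median-ratio scaling Con-FMT had 5 lower, with Fasn (-1.05, adjusted p = 0.0455) and Mlxipl (-0.71, adjusted p = 0.0338) added. Lower calls over all 10822 genes rose as well with that scaling, from 193 to 355. Without Con 3 and AOS 3, Acacb and Elovl6 were called in A10-FMT, and Acacb in Con-FMT. Of all 10822 genes, 81 were then lower and 454 higher in A10-FMT, and 61 were lower in Con-FMT. In A10-FMT against Con, Acly had a log2 change of -0.05 (95% interval -0.48 to 0.37, limma adjusted p = 0.882) and Srebf1 one of -0.02 (95% interval -0.75 to 0.71, limma adjusted p = 0.978), and under median-ratio scaling these were -0.26 and -0.22.

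AOS alone was compared with Con to ask whether the oligosaccharide changed the genes without diabetes. None of the 10 was called in AOS against Con, where 1 gene of the table was (0.00924%). All 10 log2 changes were above 0, but the share of all genes above 0 was not computed. Their median was 0.38, beside 0.06 over all genes. It moved with single libraries, from 0.22 without AOS 1 to 0.59 without AOS 2, beside 0.05 and 0.08 over all genes. For Acaca, Scd1 and Me1 every AOS library was above every Con library, which was also so for 19.1% of all genes. The lowest unadjusted limma p were those of Pnpla3 (0.00216, log2 change 0.83) and Me1 (0.0038, log2 change 0.67), both with adjusted p = 0.524. Pnpla3 passed the filter only through Con and AOS libraries and was highest in AOS. Its p is therefore bound to the filter and is no support for an effect of AOS. In STZ+AOS against STZ 0 of 10 genes were called (0% of all genes, 657 at an unadjusted p under 0.05), and Acly had the lowest unadjusted p among the 10 (0.0808, log2 change -0.37). The difference between the AOS effects with and without streptozotocin, which is also the difference between both streptozotocin effects, gave 0 calls (0% of all genes, 584 at an unadjusted p under 0.05). Acaca, Acly and Pnpla3 had unadjusted limma p of 0.0221, 0.0308 and 0.0289, with adjusted p = 0.856, and the limit on Pnpla3 applies here too. Without Con 3 and AOS 3, none of the 10 was called in AOS against Con or in the difference of AOS effects. At an unadjusted p under 0.05 those comparisons then held 289 and 290 of all genes. The larger count with AOS in both arms is therefore not shown to be a larger effect.

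Within groups, single libraries were high or low in many of these genes at once. Con 2 was highest and Con 1 lowest of the Con group in 10 of 10 genes, where 54.4% and 62.2% of all genes had those positions. AOS 1 was highest and AOS 2 lowest in 10 of 10, beside 52.9% and 46.0% of all genes. Con-FMT 2 was highest in 10 of 10, beside 18.8% of all genes. The library with the highest Scd1 of its group had the lowest summed Kupffer cell markers in 5 of 6 groups and the highest summed hepatocyte markers in 3 of 6, and the part of cell composition in these values was not tested. Kupffer cell markers summed to 52.8 to 82.2 RPKM in Con and 83.3 to 188 RPKM in STZ. The red cell markers were highest in Con-FMT 1, at 9166 RPKM against 2344 and 3334 RPKM in the other Con-FMT libraries. That library had the lowest Scd1 of its group. The library with the most red cell markers also had the lowest Scd1 in Con, AOS and A10-FMT, but not in STZ or STZ+AOS. In STZ it was STZ 3, at 1874 RPKM, which had the highest Scd1 of its group. Over the 18 libraries, the correlation of each gene with the mean standardized level of all 10, which includes the gene itself, was highest for Fasn (r = 0.96), Me1 (0.92) and Mlxipl (0.91) and lowest for Elovl6 (0.24). After subtraction of group means Elovl6 reached 0.70 and Srebf1 0.89. These are descriptions, since the libraries share groups and scaling.

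The 5 genes outside the list whose levels were most like the mean of the 10 over the 18 libraries were Slc17a8 (r = 0.92), Ces1e (0.91), Fam198a (0.91), C330021F23Rik (0.90) and Acss2 (0.89). Ces1e, a carboxylesterase gene, averaged 92.4 RPKM in Con, 119 in AOS, 39.8 in STZ and 64.0 in A10-FMT. Acss2, which makes acetyl-CoA from acetate in the cytosol, had means of 97.8 ± 47.3 RPKM in Con and 39.8 ± 18.6 RPKM in STZ (± SD, n = 3).

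The surrounding steps were read from 6 lists of other genes. Over all tested genes 30.8% were higher and 5.25% lower in STZ against Con, and 31.8% were higher and 6.11% lower in STZ+AOS against AOS, and the counts of each list stand beside these shares. Of 9 genes known to respond to insulin in liver, 5 were higher and 1 lower in STZ against Con. Pck1, a gluconeogenic enzyme, rose from 311 ± 28.6 to 2184 ± 679 RPKM (log2 change 2.76, adjusted p = 1.24e-05), and Igfbp1, a secreted binding protein that insulin represses, from 21.3 ± 2.98 to 500.2 ± 418 RPKM (adjusted p = 0.000891). Insr, the insulin receptor, rose from 10.2 ± 0.505 to 16.8 ± 2.14 RPKM. The list's median log2 change was 0.66, beside 0.21 over all genes.

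Of 10 genes of glucose entry and ChREBP targets, 5 were higher and 1 lower in STZ against Con. Slc2a2, the glucose transporter of hepatocytes, rose from 55.6 ± 15.5 to 162 ± 49.3 RPKM, and Txnip, a glucose-induced thioredoxin inhibitor, from 12 ± 2.57 to 55.4 ± 14.9 RPKM. The list's median log2 change was 0.52. In STZ+AOS against AOS 2 were higher and 3 lower, and the list's median log2 change was 0.00046, beside 0.21 over all genes. Txnip was called higher there as well, but Slc2a2 was not called (log2 change 0.58, limma adjusted p = 0.159). Of 14 regulators of SREBP processing and lipogenic transcription, 3 were higher, a smaller share than that of all genes, and 0 lower in STZ against Con. The 3 were Rxra, Nr1h2 and Pparg, nuclear receptors. The list had a median log2 change of 0.27, and under median-ratio scaling 1 was higher and 2 lower. Pparg averaged 3.42 ± 0.914 RPKM in Con and 6.06 ± 2.13 RPKM in STZ.

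Of 11 genes of carbon and NADPH supply, 1 was higher and 2 lower in STZ against Con, with a median log2 change of -0.10. Pcx, the pyruvate carboxylase, rose from 90.8 ± 8.07 to 175 ± 25.2 RPKM. Acss2 fell (log2 change -1.24, adjusted p = 0.0113), as did Idh1, the cytosolic NADP-dependent isocitrate dehydrogenase, from 175 ± 25.7 to 134 ± 9.12 RPKM. Without Con 3 and AOS 3 neither was called lower, and under median-ratio scaling 5 of the list were. Of 9 partners of the carboxylases and Fasn, 4 were higher beside the 30.8% of all genes, the AMP-activated kinase subunits Prkaa2, Prkab1 and Prkag1 and the malonyl-CoA decarboxylase Mlycd, and Thrsp, a regulator of lipogenesis, was lower. Under median-ratio scaling Prkab1 was the only one higher, and without Con 3 and AOS 3 the call of Thrsp was lost. The median log2 change of that list was 0.28.

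Of 18 tested genes of elongation, desaturation and esterification, 5 were higher and 5 lower in STZ against Con, with a median log2 change of 0.13. In STZ+AOS against AOS 4 were higher and 6 lower, with a median of -0.30. The higher counts were below the shares of all genes and the lower counts above them. Elovl3, an elongase of very long chains, fell from 226 ± 15.4 to 4.09 ± 6.87 RPKM and was at 3.31 ± 3.67 and 2.96 ± 2.87 RPKM in the FMT groups. Lpin1 and Lpin2, phosphatidate phosphatases, rose from 5.12 ± 0.874 to 54.8 ± 13.6 RPKM and from 11.9 ± 1.75 to 57.6 ± 18.6 RPKM, and Hacd3, a dehydratase of elongation, from 43.0 ± 0.254 to 65.8 ± 8.22 RPKM. No gene of the 6 lists was called in either FMT group against STZ.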

How the data were processed

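Liver mRNA of 18 libraries was sequenced by the authors after oligo(dT) selection, and the deposited table gives 1 RPKM value per gene symbol and library. The methods name SOAPaligner for mapping and RPKM for quantification. The submitters' processing notes list Bowtie 0.12.2 and the build mm10. RPKM divides reads by transcript length and by mapped reads, so a few abundant genes can shift all others, and no count test was run. All 18 columns were assigned to groups from the sample labels.

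A minimum of 1 RPKM in 3 or more libraries left 10822 genes. After adding 1, log2 values were modelled over the 6 groups by limma 3.58.1 (R 4.3.3), with a mean-variance trend and 12 residual degrees of freedom. P-values were two-sided and adjusted by Benjamini-Hochberg within each of 10 contrasts. The 10 genes and the 6 lists were chosen with earlier results of these data known, and all members are described. From each list up to 4 genes with the smallest p among those called in STZ against Con were named, with any gene called in an FMT group against STZ, and the 5 genes most correlated with the mean of the 10 were added. Thrsp was named after its values were seen. Some genes that this rule selects are not reported here. Marker lists of 9 cell types were summed, and those of hepatocytes, adipocytes, stellate, acinar, Kupffer and red cells are reported beside results. Positions come from GENCODE M21 (GRCm38, the assembly of mm10). Depth was estimated from the steps of low values of 1079 genes with 1 transcript under 1500 bases. The procedure was tested on simulated data. Alternatives were median-ratio scaling, quantile normalization, a pseudocount of 0.1, other filters, a fit without the trend, fewer groups, a replicate block, leaving out each library, and leaving out both Con 3 and AOS 3, which was chosen after seeing the data. The authors' own tests were not used.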

Additional observations from a re-analysis of the deposited data

How the results depend on the processing

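Counts of lipogenic genes called depended mostly on which libraries entered. In STZ against Con, 7 were called, 4 when only the compared groups were fitted, and 1 without both Con 3 and AOS 3; leaving out single libraries gave 1 (without Con 2) to 7, with 3 without STZ 2 and 4 without Con 3. In STZ+AOS against AOS, 8 were called and 7 to 9 under every alternative. In A10-FMT against STZ and Con-FMT against STZ, 0 were called, and 0 to 1 when single libraries were left out, the 1 being Acacb without STZ 3. Calls over all genes were highest in that setting, at 999 and 1322. In A10-FMT against Con, 5 were called, 3 with no filter on low values, 2 without both Con 3 and AOS 3, and 2 to 4 when single libraries were left out (2 without A10-FMT 3, Con 2 or Con 3 and 3 without A10-FMT 1). In Con-FMT against Con, 3 were called, 5 with median-ratio scaling, the compared groups only or 4 groups, 6 with quantile normalization and 1 without both Con 3 and AOS 3; single libraries left out gave 1 (without Con-FMT 1 or Con 3) to 5 (without Con-FMT 2). The other 4 comparisons gave 0 throughout. Fewer samples enter the fits that leave libraries out; for the other changes the cause was not tested. Over 1570 values of single genes under an alternative, 62 calls were lost, 16 gained and 0 reversed, and 46 changes that were not called turned sign.

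No pairing by replicate number is described. After subtraction of group means, same-numbered libraries of 15 pairs of groups correlated between -0.25 and 0.47. All were above 0.1 in 1 pair, A10-FMT and Con-FMT. Differently numbered libraries were not compared, so these values do not show whether the numbers pair the libraries. With mouse number as a replicate block, 7, 8, 5 and 3 genes were called in the 4 comparisons with calls and 0 in the others, as without it.

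Calls over all genes ranged from 2411 to 4659 in STZ against Con (3904 as reported), 2492 to 4102 in STZ+AOS against AOS (4102), 535 to 3378 in A10-FMT against Con (1848), 477 to 2070 in Con-FMT against Con (1961), 0 to 999 in A10-FMT against STZ (53) and 0 to 1322 in Con-FMT against STZ (18). AOS against Con gave 0 to 43 (1), STZ+AOS against STZ 0 to 11 (0), and the difference of AOS effects 0 to 6 (0). In STZ against Con 3336 were higher and 568 lower as deposited, and 1319 and 1319 after median-ratio scaling. Pnpla3, at a few reads per library with streptozotocin, is limited by depth.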

Other observations

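The summed RPKM of the 7 enzymes was 848, 1092 and 964 in the Con libraries, 194, 148 and 249 in STZ and 230.4, 170.0 and 186 in STZ+AOS. In A10-FMT it was 317, 414 and 251 and in Con-FMT 179, 596 and 239. Without Scd1 the sums were 172, 277 and 224 in Con, 163, 126 and 155 in STZ, and 190.0, 204 and 188 in A10-FMT. Every A10-FMT library was thus above every STZ library and within the Con range. The place within the Con range held only with Scd1 left out, since with Scd1 every A10-FMT sum was below every Con sum. None of the 7 enzymes was called in A10-FMT against STZ, and Acacb was lower in every A10-FMT library than in every STZ library. The share of all genes with ranges apart was not computed for A10-FMT against STZ. Con-FMT without Scd1 gave 154, 189 and 153, which overlaps STZ. These sums are descriptions with no test.

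The ratio of Acly to Fasn was 1.06, 1.28 and 1.17 in Con, 1.14, 1.81 and 2.0 in STZ and 1.59, 1.44 and 1.83 in A10-FMT. It was 2.14, 1.36 and 2.08 in Con-FMT and 1.70, 2.25 and 1.38 in STZ+AOS. The libraries of A10-FMT, Con-FMT and STZ+AOS were above all Con libraries, but not above all AOS libraries. AOS 2 was above all Con libraries and above the lowest library of each group with streptozotocin. AOS 1 was below all Con libraries and AOS 3 was within their range. The ratio therefore did not separate the libraries with streptozotocin from those without it.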
